A study of Danio rerio with 6 samples.

Results

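The flow-linked Krüppel-like factors described here are 5 genes of 25745 in the deposited table, chosen by the names klf2a, klf2b, klf4a, copeb and klf3. copeb is the table's name for klf6a, and klf4a is the gene now called klf4. Their transcripts were measured by mRNA sequencing in tails of zebrafish (Danio rerio) at 28 hours after fertilisation, in 3 libraries of sih embryos and 3 libraries of wild-type (WT) embryos. Both groups are of strain AB and were grown under the same conditions, without any added agent. The hearts of sih (silent heart) mutants, which carry a lesion in the cardiac troponin T gene tnnt2a, do not contract, so their tails develop without blood flow. The sources used here do not give the sih allele, the number of embryos per library or where the tail was cut. The comparison asks whether the transcripts of these factors differ in the tail when there is no flow.

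Krüppel-like factors are transcription factors that bind GC-rich and CACCC-type DNA through zinc fingers at their carboxyl end. In cultured mammalian endothelium, shear stress from flowing blood raises KLF2 and KLF4 through the kinases MEK5 and ERK5 and the MEF2 factors, and the proteins in turn raise anticoagulant and vasodilator genes and restrain adhesion molecules. In zebrafish embryos, klf2a is widely used as a readout of flow in vessels and heart valves. The factors also act outside vessels, among them in epidermis, in blood and in muscle, and all of these tissues are part of a tail.

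Each library held between 21240839 and 27222955 reads assigned to genes, and levels are given as the authors' normalised read counts. tnnt2a is a heart gene and does not check the genotype here, with 0, 0 and 3 reads in sih replicates 1, 2 and 3 against 0, 9 and 4 in WT. Libraries of the same replicate number resembled each other (correlation of deviations from the genotype means between 0.852 and 0.932), and both replicate 1 libraries stand apart from the others. All 16 endothelial, 12 epidermal and 8 skeletal muscle markers had reads in every library. The endothelial row that the deposited table names stab1 has the current symbol dock9, and its values stay in the endothelial sum. In whole tails, fewer cells of a type and less RNA per cell cannot be told apart. The labels do not say that libraries came from separate clutches, so the spread behind each p-value may be technical.

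None of the 5 genes passed the test for a difference between sih and WT tails. limma without pairs called 0 of the 5, as it called 0.0% of the 22813 genes tested. 0 members had an unadjusted p under 0.05 in that fit, against 1.03% of all genes. With the replicate numbers as pairs, limma called 4.84% of all genes (2.77% higher and 2.07% lower in sih) and again 0 of the 5, with 0 at an unadjusted p under 0.05, where 18.8% of all genes lay. edgeR and DESeq2 with the same pairs also called 0, and DESeq2 gave klf4a no adjusted p. The sih and WT libraries overlapped for all 5 genes, as for most genes. Only 2.1% of all genes did not overlap with sih higher, and 2.12% with sih lower. 2 of the 5 (klf4a and copeb) were higher in sih in all 3 pairs, as were 20.2% of all genes, and 0 of the 5 were lower in all 3 pairs, as were 18.2% of all genes. Changes below are log2 ratios of sih over WT, on the scale of log2(normalised count + 1), with their standard error or 95% confidence interval from the paired limma fit.

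**Figure D1:**
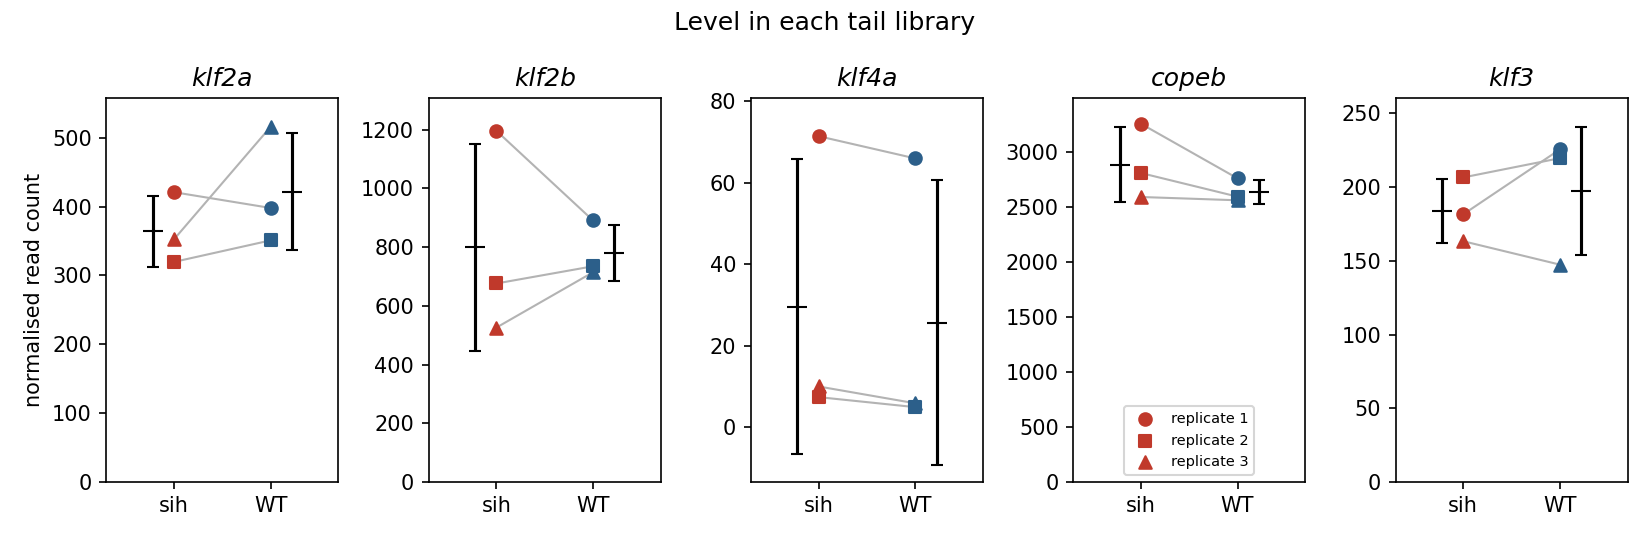
Normalised read count of each Klf gene in every tail library, sih left and WT right, with libraries of the same replicate number joined by a line. Black ticks and bars are the mean ± SD of 3 libraries. The genotypes overlap in all 5 panels, and klf4a is far higher in both replicate 1 libraries than in the other 4.

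klf2a (ENSDARG00000042667), the flow-induced endothelial factor, had 421, 320 and 352 normalised counts in sih replicates 1, 2 and 3, against 398, 351 and 516 in WT replicates 1, 2 and 3. The highest value was that of WT replicate 3, and without it the sih and WT values interleave. The change was -0.20 ± 0.13, and the log2 ratio was 0.08 in pair 1, -0.13 in pair 2 and -0.55 in pair 3. The 95% interval of -0.46 to 0.06 spans 0.726-fold to 1.04-fold of the WT level in the whole tail. Without pairs it is wider, at -0.81 to 0.41, or 0.571-fold to 1.33-fold. How large a fall lies outside the interval thus depends on the fit. The adjusted p was 0.417 in the paired limma fit. Leaving out pair 3 gave -0.027 ± 0.15 and leaving out pair 1 gave -0.34 ± 0.14 (adjusted p = 0.969 and 0.147, limma with pairs). The 246 to 525 reads per library give a counting error of 8.65% to 12.7% at 95% (exact Poisson), smaller than the spread between replicates.

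klf2b (ENSDARG00000040432), the other zebrafish copy of the single mammalian KLF2 gene, had 1197, 676 and 526 normalised counts in sih replicates 1, 2 and 3, against 891, 735 and 714 in WT. The sih libraries include both the highest and the lowest value of the 6. The mean was 800 ± 352 in sih and 780 ± 96.7 in WT (SD, n = 3 each), and the change was -0.046 ± 0.12 (adjusted p = 0.891, limma with pairs). Pair 1 was higher in sih (log2 ratio 0.42), while pairs 2 and 3 were lower (-0.12 and -0.44). Without pair 1 the change was -0.28 ± 0.12 (adjusted p = 0.176), and without pair 3 it was 0.15 ± 0.13 (adjusted p = 0.691, both limma with pairs). The sign for klf2b therefore depends on which pair is left out.

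The paralogs klf2a and klf2b can be set against each other within a library. klf2b had 2.84, 2.12 and 1.49 times the normalised count of klf2a in sih replicates 1, 2 and 3, against 2.24, 2.09 and 1.38 times in WT. The ratio was higher in sih in each of the 3 pairs, by little in pair 2, and the genotypes overlapped. This difference was not tested. It is not corrected for transcript length, so it compares libraries and not the levels of the 2 genes.

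**Figure D2:**
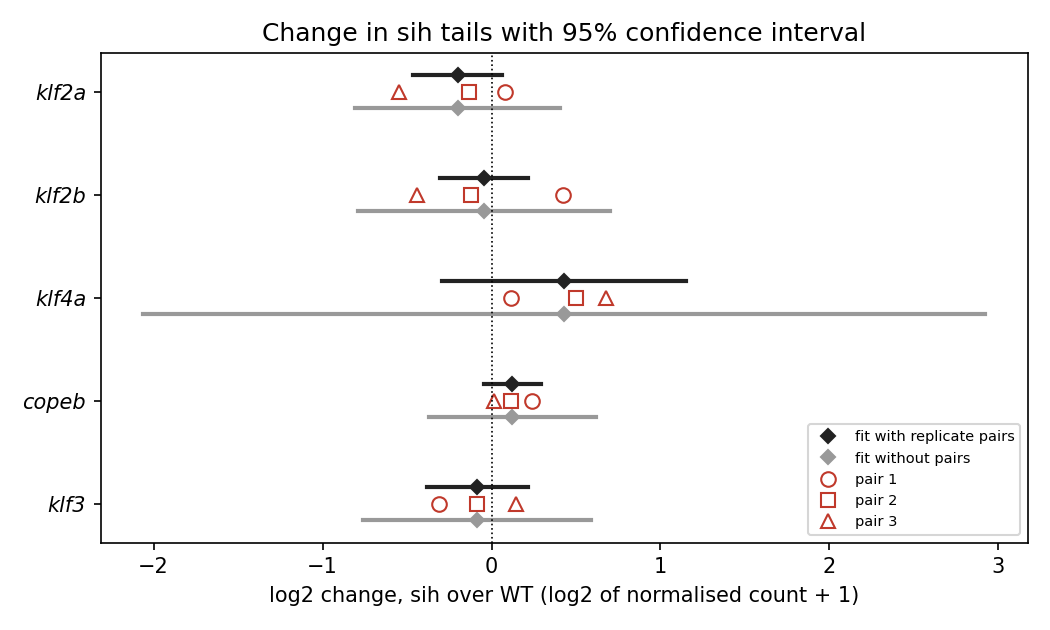
Log2 change of each Klf gene, sih over WT, from the fit with replicate pairs (black) and without them (grey), where diamonds are estimates and bars 95% confidence intervals. Red symbols are the log2 ratios in each replicate pair. Every interval includes 0, and klf2a, klf2b and klf3 have pairs on both sides of it.

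klf4a (ENSDARG00000079922) is the zebrafish counterpart of KLF4, which in mammals acts in the epidermal barrier and in flow-exposed endothelium. It had 71.5, 7.41 and 10.0 normalised counts in sih replicates 1, 2 and 3, against 66.0, 4.95 and 5.90 in WT. Both replicate 1 libraries were high and the other 4 low, whichever the genotype. These values rest on 63, 8 and 7 reads in sih and 72, 6 and 6 reads in WT. At 95% the counting interval of sih replicate 2 runs from 3.20 to 14.6 and that of WT replicate 2 from 1.82 to 10.8 normalised counts. The sih and WT intervals overlap in each of the 3 replicates. That overlap does not say how small a difference could have been detected.

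Each of the 3 pairs had more klf4a in sih (log2 ratios 0.11, 0.50 and 0.68), without a pair in the other direction. The change of 0.43 ± 0.34 did not pass (adjusted p = 0.552, limma with pairs), and its 95% interval of -0.29 to 1.15 still allows 0.817-fold to 2.22-fold. Without pairs the interval runs from 0.239-fold to 7.59-fold. On the log2(normalised count + 1) scale, replicate 1 lay 2.91 above the mean of replicates 2 and 3 in sih and 3.39 above it in WT. A difference at least this large in the same direction in both genotypes was found in 1.12% of all genes tested. The summed endothelial markers differed less, at 8998 in replicate 1 and 7938 to 8028 in the other sih libraries, and 9094 in replicate 1 and 7599 to 7931 in the other WT libraries. Picked as examples from that sum, cdh5 and egfl7 differed more, and in opposite directions. In replicates 1, 2 and 3, cdh5 had 51.0, 25.9 and 10.0 normalised counts in sih and 116, 17.3 and 7.86 in WT. The replicate 3 values of cdh5 rest on 7 reads in sih and 8 in WT. egfl7 had 252, 501 and 652 in sih and 266, 390 and 415 in WT. The summed epidermal markers were 984552 in sih replicate 1 against 735974 and 967214 in sih replicates 2 and 3, and 804818 in WT replicate 1 against 618883 and 868121 in WT replicates 2 and 3. The part of these tissues in the replicate difference was not tested.

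copeb (ENSDARG00000029072), the klf6a gene, encodes a factor first described as a binder of core promoter elements and, in zebrafish, needed for growth of the liver and gut. It had 3252, 2805 and 2587 normalised counts in sih replicates 1, 2 and 3, against 2756, 2590 and 2557 in WT. The lowest sih value lies below the highest and close to the lower WT values. Its mean was 2881 ± 339 in sih and 2635 ± 107 in WT (SD, n = 3 each). The log2 ratio was positive in all 3 pairs (0.24, 0.11 and 0.017), and the change of 0.12 ± 0.08 did not pass (adjusted p = 0.444, limma with pairs). With at least 1806 reads in each library copeb was the most precisely counted of the 5, and its 95% interval of 0.969-fold to 1.22-fold is the narrowest. Scaling by library totals put the change at -0.061 and the median gene of the table at -0.18, so copeb stayed above the median gene.

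klf3 (ENSDARG00000015495), a repressor that works with the corepressor CtBP and is known from mouse for roles in red cells, B cells and fat, had 182, 207 and 163 normalised counts in sih replicates 1, 2 and 3. The WT replicates 1, 2 and 3 had 226, 220 and 147. WT holds both the highest and the lowest value, and all 3 sih values lie between them. The change was -0.084 ± 0.14 (adjusted p = 0.807, limma with pairs), and the log2 ratio was -0.31 in pair 1, -0.088 in pair 2 and 0.15 in pair 3. Its 95% interval covers 0.766-fold to 1.16-fold.

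Levels relative to the summed endothelial markers gave the same picture for the klf2 genes. The endothelial sum is not independent of flow genes. It includes tie1, tek and egfl7, which are also on the list below of Klf targets or flow-responsive genes. It also includes cdh5, kdrl and pecam1, which are on the list of genes on the way from flow to klf2. klf2a was 4.68%, 4.03% and 4.39% of that sum in sih replicates 1, 2 and 3, against 4.38%, 4.62% and 6.51% in WT. klf2b was 13.3%, 8.52% and 6.55% of the sum in sih, against 9.80%, 9.67% and 9.01% in WT. Both ranges overlapped between genotypes. Against the summed epidermal markers, klf2a was 0.0427%, 0.0434% and 0.0364% in sih and 0.0494%, 0.0567% and 0.0594% in WT, which do not overlap, as for 3.14% of all genes with sih lower on this ratio. klf2b was 0.122%, 0.0919% and 0.0544% in sih and 0.111%, 0.119% and 0.0823% in WT, which overlap. The epidermal sum itself was higher in sih in each pair, so this ratio holds a change of its denominator, and whether epidermal cells carry the klf2a measured here was not tested.

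**Figure D3:**
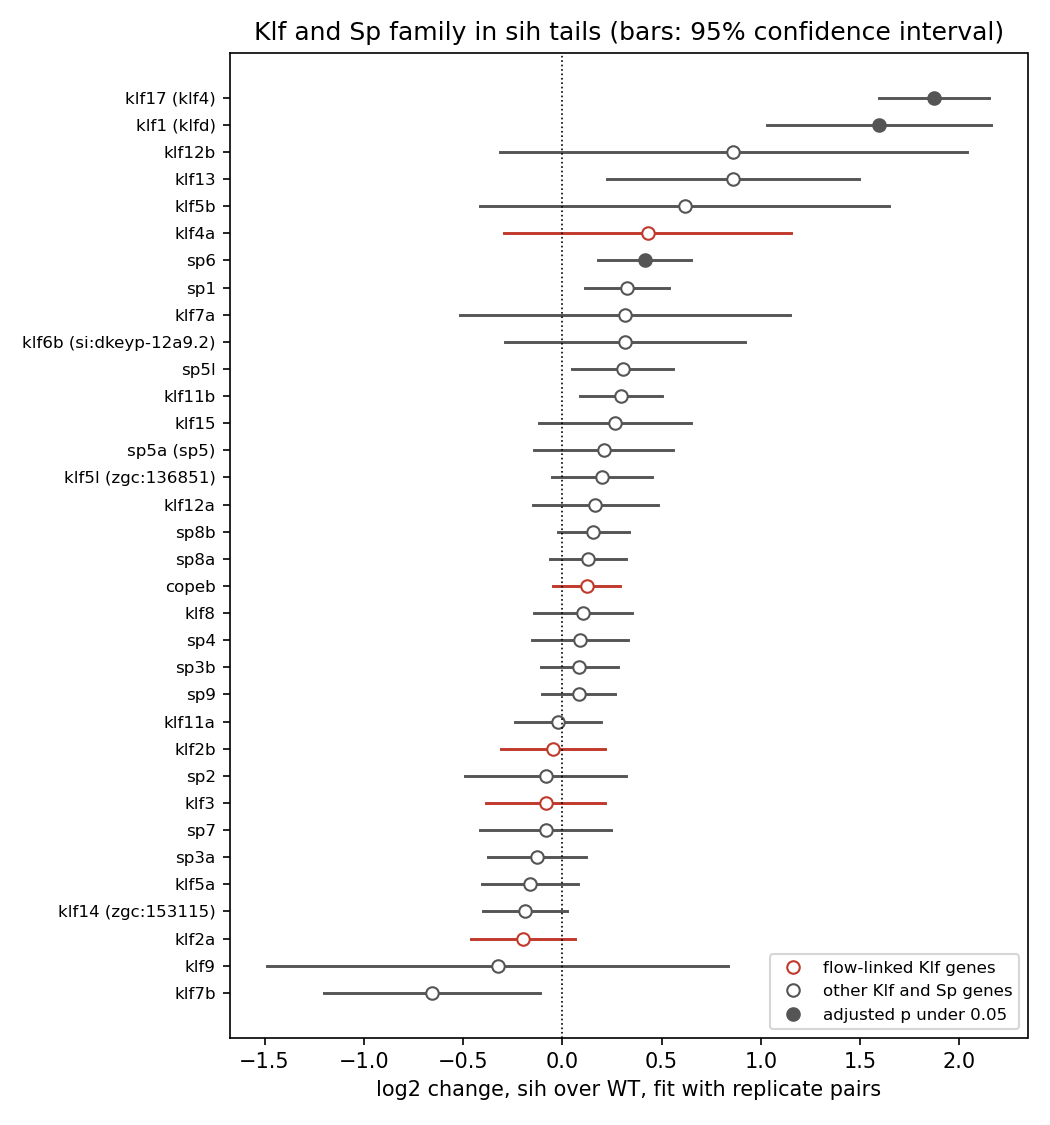
Log2 change, sih over WT, with 95% confidence interval in the fit with replicate pairs, for the 5 flow-linked Klf genes (red) and 29 other Klf and Sp genes (grey), ordered by change. Names in brackets are those of the table. Filled points passed an adjusted p of 0.05. klf17 and klf1 stand highest, at 1.87 and 1.60, while all intervals of the flow-linked genes include 0.

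Elsewhere in the family, 3 of 29 other Klf and Sp genes rose in sih tails with pairs, where 2.77% of all genes rose, and 0 fell, and 0 of the 29 passed without pairs. The median change of the 29 was 0.17, against -0.0042 for all genes tested. The largest rise was that of klf17 (ENSDARG00000038792), a factor of the zebrafish blood islands and hatching gland that the table lists as klf4. It had 549, 635 and 466 normalised counts in sih replicates 1, 2 and 3, against 132, 153 and 161 in WT. The genotypes did not overlap, and the change was 1.87 ± 0.13 (adjusted p = 2.12e-08, limma with pairs, and 0.0909 without). klf1 (ENSDARG00000017400), listed as klfd, whose mouse counterpart drives globin genes in red cells, rose by 1.60 ± 0.27 (adjusted p = 0.00185, limma with pairs), to 103, 49.1 and 35.8 in sih against 28.4, 14.0 and 14.7 in WT. Groups that do not overlap with sih higher were found for 2.1% of all genes.

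Erythroid markers were higher in the same libraries. All 12 on the list, klf1 among them, rose in sih with pairs, where 2.77% of all genes rose. Without pairs 0 of the 12 passed, in a fit that called 0 of all genes tested. The sum of the 12 was 154333 to 207493 in sih and 33114 to 47449 in WT. The part of red cell number in the rise of klf17 and klf1 was not tested. Of 10 neutrophil and macrophage markers, 4 fell and 0 rose in sih with pairs, where 2.07% of all genes fell, and 6 did not pass, among them csf1ra at 0.74. In all 3 pairs 9 of the 10 were lower in sih, as were 18.2% of all genes, and the median change of the 10 was -1.11. Their sum was 723 to 766 in sih against 1391 to 1892 in WT.

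The third family member that rose, SP6 (ENSDARG00000090586), an ectodermal factor in mouse, had 331, 557 and 973 normalised counts in sih replicates 1, 2 and 3, against 282, 435 and 615 in WT. Its change was 0.41 ± 0.11 (adjusted p = 0.0375, limma with pairs), and it overlapped between genotypes. The call was lost without pair 3 (adjusted p = 0.399), with library totals (0.215) and with a pseudocount of 0.1 (0.0845). Without the filter on low values no gene of the table passed, klf17 and klf1 included (adjusted p = 0.270 each, limma with pairs). klf7b, the lowest of the 29, was at -0.66 ± 0.26 (adjusted p = 0.166, limma with pairs) and was named after its value was seen. Its log2 ratio was -1.24 in pair 1, -0.048 in pair 2 and -0.68 in pair 3. It was called lower by edgeR with pairs (adjusted p = 0.0111) and by limma with pairs without pair 2 (0.0248). Without pair 1 or pair 3 it was not called (0.703 and 0.224, limma with pairs).

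Of 35 genes on the way from flow to klf2 (mechanosensors, Mek5, Erk5, Mef2 factors, their histone deacetylases and the cerebral cavernous malformation complex), 1 rose and 0 fell with pairs, which is near the 2.77% of all genes that rose. The 1 was PKD1 (ENSDARG00000030417), the pkd1a gene of a polycystin, a membrane protein implicated in sensing flow at cilia. It had 327, 156 and 418 normalised counts in sih replicates 1, 2 and 3, against 260, 116 and 261 in WT (0.47 ± 0.13, adjusted p = 0.0430, limma with pairs). sih was higher in each pair, although the genotypes overlapped. The call was lost without pair 3 (adjusted p = 0.349), with library totals (0.186), with a pseudocount of 0.1 (0.0830) and in DESeq2 (0.0613). map2k5, the Mek5 gene, was lower in sih in each pair and did not pass (-0.51 ± 0.17, adjusted p = 0.0846, limma with pairs). edgeR with pairs called it lower (0.0423), as did limma with pairs without pair 1 (0.0376) and with library totals (0.0186). DESeq2 (0.203) and leaving out pair 2 (0.111) or pair 3 (0.468) gave no call. With library totals and pairs, 0 of the 35 rose and 5 fell, where 182 and 2074 of all 22916 genes tested did. map2k5 was named after its value was seen. The list's median change was -0.042.

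Of 35 tested genes reported as targets of Klf2, Klf4 or Klf6 or as responsive to flow, 1 rose and 2 fell with pairs, where 2.77% of all genes rose and 2.07% fell. The 1 that rose is near the share of all genes. cxcr4a, a chemokine receptor that is repressed by flow in zebrafish vessels, had 910, 1112 and 1541 normalised counts in sih replicates 1, 2 and 3, against 699, 943 and 1013 in WT. It rose by 0.41 ± 0.10, and the call was lost without pair 3, with library totals and with a pseudocount of 0.1 (adjusted p = 0.246, 0.143 and 0.0574, limma with pairs). cav1, the caveolae protein, had 2476, 4086 and 2100 in sih against 4079, 4498 and 2856 in WT, lower in each pair (-0.43 ± 0.09, adjusted p = 0.0119, and 0.0608 with a pseudocount of 0.1, limma with pairs). sele, the adhesion molecule E-selectin, had 56.7, 32.4 and 20.1 in sih against 138, 140 and 94.3 in WT and did not overlap (-1.84 ± 0.22, adjusted p = 4.76e-05, limma with pairs), as for 2.12% of all genes with sih lower. tgfb1a (82.8, 62.1 and 75.9 in sih, 122, 85.9 and 118 in WT) and plaua (3 to 13 reads per library) also did not overlap, with sih lower. Neither passed (adjusted p = 0.0882 and 0.393, limma with pairs). tgfb1a was called lower by edgeR with pairs (0.0386) and by limma with pairs and library totals (0.0200). Leaving out pair 1, 2 or 3 gave it no call (0.192, 0.119 and 0.313, limma with pairs). Both genes were named after their values were seen. The median of the list was -0.021, against -0.0042 for all genes tested. Without pair 1 the list had 3 higher and 2 lower, where 744 and 504 of all 22433 genes tested were called. Without pair 3 it had 0 higher and 2 lower, where 256 and 250 of all 23018 genes tested were called.

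Of the 16 endothelial markers 1 rose with pairs, where 2.77% of all genes did. It was the junction gene cldn5b, with 704, 928 and 755 normalised counts in sih against 461, 769 and 558 in WT. That call was lost without pair 3 (adjusted p = 0.0519), with library totals (0.117) and with a pseudocount of 0.1 (0.0533, all limma with pairs). The summed endothelial markers were 7938 to 8998 in sih and 7599 to 9094 in WT, so the sums overlapped.

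KLF2, KLF4 and KLF6 are also known to be induced within minutes to hours by handling and growth factors in mammalian cells, and a list of immediate early genes stood beside them. limma with pairs called 0 of its 30 genes, with 11 at an unadjusted p under 0.05, where 18.8% of all genes lay. edgeR with pairs called 2 higher and 1 lower, where it called 1004 and 795 of all 22813 genes tested. DESeq2 with pairs called 1 higher and 0 lower, where it called 639 and 308 of the same genes. Its most abundant members were jun, with a mean of 3367 ± 706 normalised counts in sih and 2840 ± 1065 in WT, and the phosphatase gene dusp6, with 3267 ± 98.8 in sih and 2896 ± 287 in WT (SD, n = 3 each). The median of the list was 0.33, 0.12 and -0.20 in pairs 1, 2 and 3. klf2a, klf2b and copeb likewise had their highest log2 ratio in pair 1 and their lowest in pair 3, while klf4a and klf3 had their lowest in pair 1 and their highest in pair 3. The medians of the flow sensing list (0.084, 0.028 and -0.16) and of the epidermal markers (0.19, 0.18 and 0.17) had the same order. Those of the remaining lists did not. The share of all genes with that order was not counted. Without pair 3, 5 immediate early genes were called higher and 0 lower, where 256 and 250 of all 23018 genes tested were. Without pair 1, 0 were called higher and 4 lower, where 744 and 504 of all 22433 genes tested were (both limma with pairs). The part of handling in the values of the 5 factors was not tested.

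**Figure D4:**
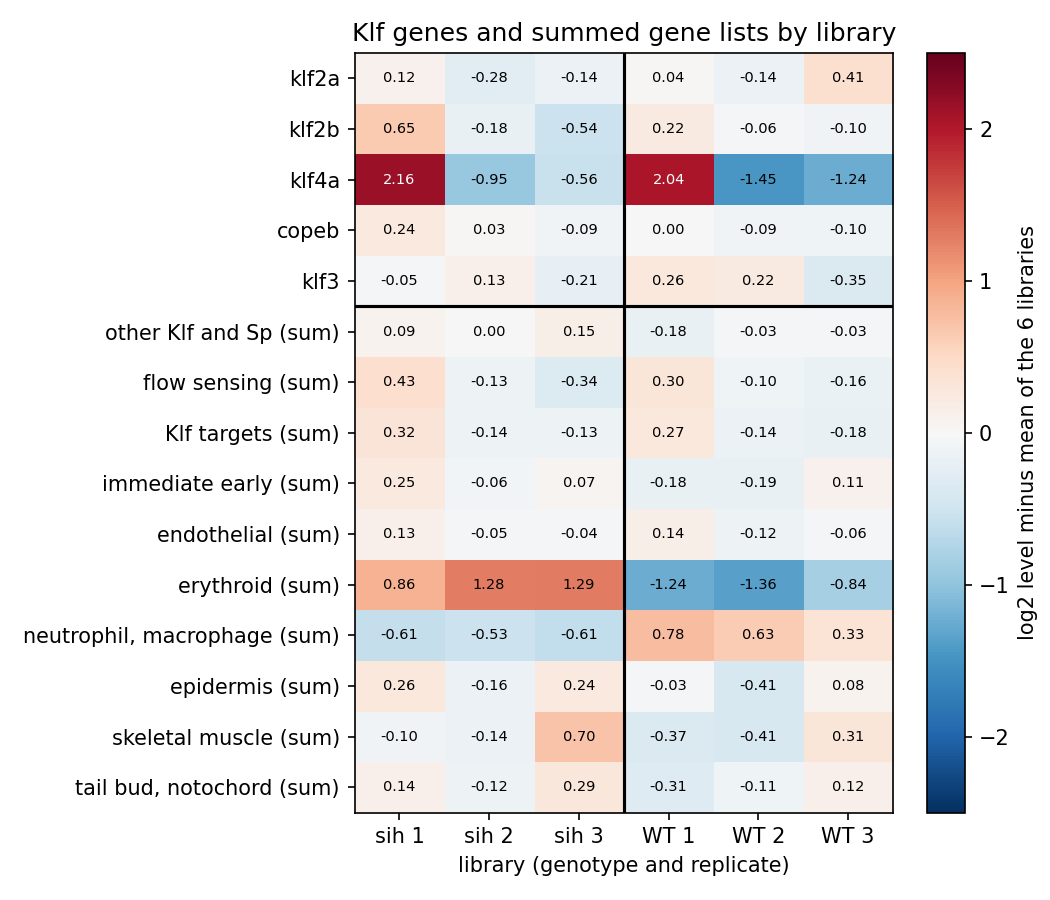
Level of each Klf gene (top) and summed level of each gene list (bottom) in the 6 libraries, as log2 relative to the mean of the libraries. Of the sums, erythroid markers separate the genotypes furthest (0.86 to 1.29 in sih, -1.36 to -0.84 in WT). Neutrophil and macrophage markers (-0.61 to -0.53 in sih, 0.33 to 0.78 in WT) and other Klf and Sp genes (0.0014 to 0.15, -0.18 to -0.028) do so less. The sum of the other Klf and Sp genes was 12915 to 14288 in sih and 11381 to 12655 in WT. It includes klf17, at 466 to 635 in sih and 132 to 161 in WT, and was not taken without that gene. Among the Klf genes, klf4a separates replicate 1 furthest from the rest (2.16 in sih and 2.04 in WT). klf2b does so less (0.65 in sih and 0.22 in WT), and klf2a, copeb and klf3 separate neither genotypes nor replicate 1.

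The genes most like each factor were taken as those with the highest Pearson correlation over the 6 libraries, among genes with a mean of at least 50. The libraries share replicate numbers and differ in depth, so these values describe likeness of pattern and nothing else. klf2a was most like ccny (r = 0.982), which encodes a cyclin, PROCA1 (0.968) and mogs (0.962), a glucosidase of glycoprotein processing. Only 13 of 13247 genes reached an r of 0.9 with klf2a. klf2b was most like zfp36l1b (0.997), an mRNA decay factor, odz4 (0.997), a teneurin, and mcm9 (0.995), and 605 genes reached 0.9 with it.

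klf4a followed the replicate pattern shared by many genes. It was most like anks1b (0.999), gna11a (0.998), a G protein subunit on the flow sensing list, and GBF1 (2 of 2) (0.998), and 1880 of 13248 genes reached 0.9. copeb was most like bnip3lb (0.990), a mitochondrial receptor for autophagy, TMEM201 (0.989) and the adaptor gene gab1 (0.986). Of these, bnip3lb rose in sih (0.42, adjusted p = 0.0341, limma with pairs). klf3 was most like CR848029.2 (0.988), pomt1 (0.983), a protein mannosyltransferase, and mcoln1 (0.976), a lysosomal channel.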

How the data were processed

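Per the labels, poly(A) RNA of tails was sequenced from 3 sih and 3 WT libraries. The submitters' processing notes name Zv9, TopHat, HTSeq 0.5.3p5 and edgeR 3.0.8. Annotation, strand setting, filter and scaling: not given in the sources used here. In the deposited table the authors give normalised read counts, a signal unit with 1 scaling factor per library. Within 1e-06, 100% of the non-zero values came out as whole reads once divided by the smallest value of their library. Current symbols were found for 19211 identifiers. Counting intervals cover counting error only.

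limma 3.58.1 with a mean-variance trend was fitted to log2(value + 1), for 22813 genes (mean of 1 or more in sih or in WT), without a block, two-sided, with Benjamini-Hochberg adjustment at 0.05. The planned test for raw counts did not apply. Same-numbered libraries correlated at 0.932, 0.884 and 0.852, so the numbers pair the libraries, on the data and not the labels, and the paired fit stands beside it. edgeR 4.0.16 and DESeq2 1.42.0 were run on recovered reads. Fits were run on simulated data, with changes set only in genes with a mean above 50, where klf4a had 27.6. No result above rests on that run. Lists took up to 4 called members, or the 2 most abundant, as named genes. Outside that rule, klf7b, cdh5, egfl7, csf1ra, map2k5, tgfb1a and plaua were also named. The members and lists were chosen with earlier results of these data known. No sequences are shown.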

Additional observations from a re-analysis of the deposited data

How the results depend on the processing

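No alternative called any of the 5 genes. Without pair 1, limma with pairs gave klf2a and klf2b an unadjusted p under 0.05, as it did 3733 of all 22433 genes tested. With library totals and pairs it gave klf2a such a p, as it did 5714 of all 22916. Each was lower in sih. No other alternative gave any of the 5 an unadjusted p under 0.05. Of 19 alternatives (18 for klf4a, which failed the filter of 1 CPM in 3 libraries), klf2a kept its direction in 19, klf2b in 14, klf4a in 15, copeb in 17 and klf3 in 16. The lowest adjusted p was 0.0729, for klf2a at -0.38 with library totals and the replicate block, a scaling that moves the median of all genes to -0.18. klf2b turned to 0.037 in edgeR without a block, for which the cause was not tested. copeb stood at -0.061 with library totals, with or without the block; that scaling lowers the median of all genes, and copeb stayed above it. Leaving out 1 library, or 1 pair with the block, gave -0.34 to -0.027 for klf2a, -0.38 to 0.21 for klf2b, -0.54 to 1.56 for klf4a, 0.033 to 0.20 for copeb and -0.28 to 0.029 for klf3. With the block, klf2b turned to 0.15 without pair 3 and klf3 to 0.029 without pair 1. Without the block, klf3 turned to 0.024 without WT replicate 1 and to 0.0046 without WT replicate 2. In the same fits klf2b turned to 0.031 without sih replicate 2, 0.21 without sih replicate 3 and 0.054 without WT replicate 1. There klf4a turned to -0.54 without sih replicate 1, -0.19 without WT replicate 2 and -0.082 without WT replicate 3. The fit without a block called 0 genes higher and 0 lower (235 at an unadjusted p under 0.05), and so did edgeR without a block and the paired limma fit with no filter. With the replicate block, limma called 632 higher and 473 lower, edgeR 1004 and 795, DESeq2 639 and 308, a pseudocount of 0.1 266 and 144, the filter of 1 CPM 805 and 631, TMM 633 and 473, and library totals 182 and 2074. With the block, limma called 744 higher and 504 lower without pair 1, 721 and 761 without pair 2, and 256 and 250 without pair 3. Without the block, leaving out 1 library called 0 higher and 0 lower each time, with 160 to 534 genes at an unadjusted p under 0.05. For klf4a, 6 to 8 reads in 4 libraries limit what can be seen.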
